A study of Mus musculus with 6 samples.

Results

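Immunoglobulin heavy and light chain genes were followed in innate lymphoid cell precursors (ILCPs), progenitors in the bone marrow from which innate lymphoid cells develop and which do not make antibody. The members were taken by symbol: heavy, kappa and lambda chain genes and segments, with Jchain and Mzb1, wherever the summed count over the 6 libraries was above 0. This gave 45 of the 16383 genes analysed, and Mzb1 is not analysed here. The 45 were 5 constant region genes, 35 variable (V) segments, 4 joining (J) segments and Jchain, and all 45 matched GENCODE vM21 by symbol. Ighe, the IgG constant regions other than Ighg2b and the lambda constant regions were not among them. The cells were sorted from C57BL/6 Rag1-cre;ET-2 mice into a GFP+ fraction, which expresses ET-2, and a GFP- fraction, which does not. Both fractions were lineage-depleted and gated as Lin-, Flt3-, IL7Rα+, α4β7+, CD90+ and CD25-, and all mice carried Cre under control of Rag1 sequence as well as ET-2. Each group had 3 libraries, each sorted from the pooled marrow of several mice, and libraries of one number, GFP+ and GFP-, come from one pool. Mice with Rag1-cre alone are not among the samples, so the effects of Cre history and of ET-2 cannot be told apart, and no age is given in the sources used here.

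An antibody gene is assembled from V, D and J segments, and its RNA joins the assembled segment to a constant region that sets the class: Ighm gives IgM, Ighd IgD, Ighg2b IgG2b and Igha IgA, while Igkc gives the kappa light chain. The heavy chain locus is also known to give sterile RNA before it is rearranged. Such RNA holds the Ighm constant region without a V segment, and is known from early lymphoid progenitors. Jchain encodes the protein that links IgM and IgA units into polymers. Plasma cells are the known source of large amounts of immunoglobulin RNA.

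The libraries held 10432509 to 15042452 counts in GFP+ ILCPs and 11680724 to 19038706 in GFP- ILCPs. GFP+ replicate 3 stood apart. It had the fewest counts, 10432509, and the fewest genes above 0, 11240 against 12576 to 15016 in the other 5 libraries. Fitted fold changes of the members and the tallies of the gene lists are given below with and without it. Il7r, which encodes the IL7Rα used in the sort, was detected in all libraries, with 1255, 2456 and 2447 CPM (counts scaled to library size by TMM) in GFP+ ILCPs, against 1354, 1704 and 2674 CPM in GFP- ILCPs. Wherever 3 values are given, they are those of replicates 1, 2 and 3. Il2ra, which encodes the CD25 that the sort gated out, had 151, 395 and 2012 CPM in GFP+ ILCPs, against 176, 323 and 339 CPM in GFP- ILCPs, and was thus highest in GFP+ replicate 3. Flt3, also gated out, did not exceed 2.57 CPM in any library.

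The J segments are shown first because none shares a 31-base stretch with another annotated gene, so that their counts are less open to sharing between copies than those of V segments. Each holds only 8 to 23 such stretches. They are read 5′ to 3′ from GENCODE vM21 transcripts on GRCm38. Capitals mark the bases that code for the Phe-Gly-X-Gly motif of light chain J segments (TTNGGNNNNGGN) or the Trp-Gly-X-Gly motif of heavy chain J segments (TGGGGNNNNGGN), searched on the sense strand. Igkj5 lies at chr6:70723886-70723927, Igkj2 at chr6:70722916-70722958 and Igkj3 at chr6:70723223-70723260, all on the plus strand, and Ighj1 lies at chr12:113429781-113429833 on the minus strand. The letters printed for Igkj5 and Igkj2 are 38 and 39 bases, fewer than the 42 and 43 exon bases of these genes.
Igkj5: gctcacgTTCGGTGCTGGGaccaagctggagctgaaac
Igkj2: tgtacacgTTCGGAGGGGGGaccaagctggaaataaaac
Igkj3: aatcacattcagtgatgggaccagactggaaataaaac
Ighj1: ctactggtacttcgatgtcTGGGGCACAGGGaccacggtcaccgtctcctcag
The motif was found in Igkj5, Igkj2 and Ighj1. The letters of Igkj3, known in mice as a J segment that gives no functional light chain, held no match.

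Among V segments, 5 are shown for the loci they come from and for how far their reads can be told from those of relatives. The last 120 bases of each transcript, which end where the J segment is joined, are printed 5′ to 3′. Capitals mark bases that lie in no stretch of 31 bases shared with another annotated gene, and lower case marks bases that do. Igkv1-110 lies at chr6:68270485-68271267 and Igkv15-103 at chr6:68437440-68437925 on the plus strand. Iglv1 lies at chr16:19085017-19085500, Ighv6-3 at chr12:114391712-114392169 and Ighv1-54 at chr12:115193675-115194134 on the minus strand.
Igkv1-110: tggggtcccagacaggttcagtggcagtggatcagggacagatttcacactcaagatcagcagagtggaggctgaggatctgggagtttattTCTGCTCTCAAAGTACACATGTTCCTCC
Igkv15-103: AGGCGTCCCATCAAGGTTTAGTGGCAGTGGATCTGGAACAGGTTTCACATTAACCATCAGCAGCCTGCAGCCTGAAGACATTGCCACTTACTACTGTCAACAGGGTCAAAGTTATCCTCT
Iglv1: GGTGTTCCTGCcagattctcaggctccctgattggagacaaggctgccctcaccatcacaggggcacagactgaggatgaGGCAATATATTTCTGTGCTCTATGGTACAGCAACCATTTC
Ighv6-3: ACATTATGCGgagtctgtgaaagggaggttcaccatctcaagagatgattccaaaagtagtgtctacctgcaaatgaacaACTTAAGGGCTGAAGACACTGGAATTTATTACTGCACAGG
Ighv1-54: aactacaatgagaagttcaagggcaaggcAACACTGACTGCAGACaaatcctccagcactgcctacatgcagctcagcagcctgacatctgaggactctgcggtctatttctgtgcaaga
Over the whole transcript, 63.6% of the 31-base stretches of Igkv1-110 also occur in another gene, the top one being a kappa V segment of the same family. The share was 36.8% for Iglv1, 31.6% for Ighv6-3, 26.2% for Ighv1-54 and 0% for Igkv15-103. Of the 35 V segments, 15 shared at least 50% of these stretches with another gene, so their counts are uncertain where the authors' counting split reads between copies. Ighv1-19-1 and Ighv1-35, both annotated as pseudogenes, share 58.3% of the stretches of each and had the same value, 1.86 counts in GFP+ replicate 1 and 0 elsewhere. The constant region genes are more distinct, with at most 9.29% shared, in Ighg2b.

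Ighm was the only immunoglobulin gene with over 100 counts in every library. This heavy chain constant region (chr12:113418558-113422730, minus strand) had 382, 540 and 9613 CPM in GFP+ ILCPs, against 515, 573 and 1318 CPM in GFP- ILCPs. GFP+ replicate 3 was the highest of the 6 libraries and GFP+ replicate 1 the lowest, and the groups overlapped. Ighm was lower in GFP+ than in GFP- ILCPs in pairs 1 and 2 and higher in pair 3. The edgeR log2 fold change was 2.14 ± 1.12 (SE), with an adjusted p of 0.998, and without GFP+ replicate 3 it was −0.80 ± 0.58 (SE).

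The other constant regions of secreted antibody were far more uneven. Igkc (chr6:70726435-70726966, plus strand) had 10.6, 47.0 and 13547 CPM in GFP+ ILCPs, against 212, 0.275 and 134 CPM in GFP- ILCPs. Its edgeR log2 fold change of 5.31 ± 2.47 (SE, adjusted p = 0.998) became −2.0 ± 1.73 (SE) without GFP+ replicate 3. Igha (chr12:113254830-113260236, minus strand) had 0, 0 and 2974 CPM in GFP+ ILCPs, against 185, 0 and 27.1 CPM in GFP- ILCPs. Its edgeR log2 fold change was 3.82 ± 2.97 (SE, adjusted p = 0.998), GFP+ replicate 3 held 93.3% of its summed CPM, and the 2 other GFP+ libraries were at 0. Ighg2b (chr12:113302965-113307933, minus strand) had 2.40, 0 and 8262 CPM in GFP+ ILCPs, against 0.280, 0.0459 and 0.0776 CPM in GFP- ILCPs. GFP+ replicate 3 held 99.97% of its summed CPM, and edgeR's filter on low counts left it out of the test.

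Ighd had the opposite sign in the fit. The IgD constant region (chr12:113406604-113416324, minus strand) had 1.83, 2.16 and 0 CPM in GFP+ ILCPs, against 4.68, 5.78 and 44.6 CPM in GFP- ILCPs. The groups did not overlap and Ighd was lower in 3 of 3 pairs. It was the only member of which this was true, while 5.9% of all genes had non-overlapping groups with GFP+ lower and 2.59% with GFP+ higher. GFP+ ILCPs averaged 1.33 ± 1.16 CPM of Ighd, against 18.3 ± 22.7 CPM for GFP- ILCPs (SD, n = 3 each), and 44.6 CPM in GFP- replicate 3 carried most of the GFP- mean. The edgeR log2 fold change was −3.76 ± 1.67 (SE), with an unadjusted p of 0.0471 and an adjusted p of 0.998, −3.19 ± 1.35 (SE) without GFP+ replicate 3 and −1.96 ± 2.05 (SE) without GFP- replicate 3. Its sign was negative in all 3 fits, none of which passed the threshold.

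Jchain (chr5:88519809-88527891, minus strand) had 0.127, 0 and 794 CPM in GFP+ ILCPs, against 15.5, 0.321 and 5.67 CPM in GFP- ILCPs. In pairs 1 and 2 it was lower in GFP+ ILCPs, and in pair 3 it was higher. Among the 5 libraries other than GFP+ replicate 3, it was highest in GFP- replicate 1 and next in GFP- replicate 3, the same order as Igkc and Igha. The edgeR log2 fold change was 5.22 ± 2.60 (SE, adjusted p = 0.998), and −6.58 ± 2.35 (SE, adjusted p = 1.00) without GFP+ replicate 3.

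**Figure D1:**
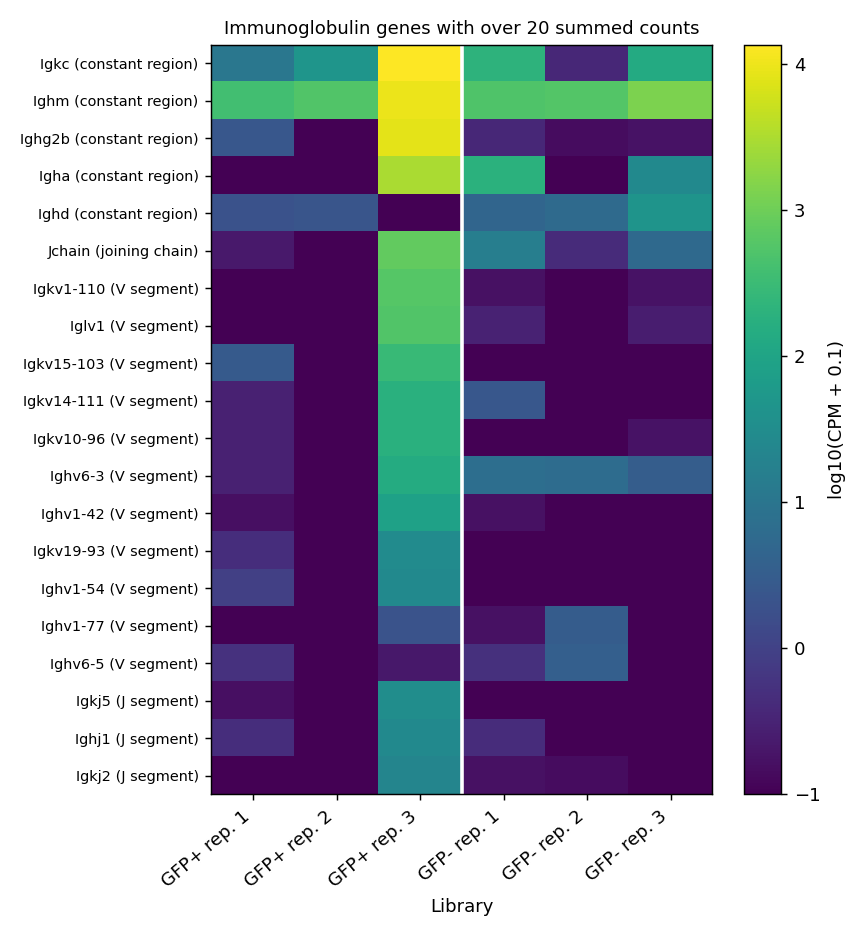
Level of each immunoglobulin gene with over 20 summed counts, as log10(CPM + 0.1), in 3 GFP+ libraries (left of the white line) and 3 GFP- libraries (right of it); rows are grouped into constant regions, the joining chain gene Jchain, V segments and J segments. GFP+ replicate 3 is the brightest column in nearly all rows, Ighm is bright in all 6 columns, and Ighd is dark in GFP+ replicate 3.

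V segments were detected mainly in GFP+ replicate 3. Igkv1-110, the most abundant kappa V segment, had 0, 0 and 609 CPM in GFP+ ILCPs, against 0.0699, 0 and 0.0776 CPM in GFP- ILCPs. Iglv1, the leading lambda V segment, had 0, 0 and 547 CPM in GFP+ ILCPs, against 0.210, 0 and 0.155 CPM in GFP- ILCPs. For both, 1 library carried all but a trace of the level, whereas the other lambda segments, Iglv2 and Iglv3, did not exceed 0.236 and 0.35 CPM in any library. Igkv15-103, whose transcript shares no 31-base stretch with another gene, had 2.72, 0 and 290 CPM in GFP+ ILCPs and 0 in all GFP- libraries. Against a floor of 3 counts over the GFP- group this gives a bound of at least 990-fold higher, set nearly wholly by GFP+ replicate 3. Without that library the GFP+ counts were 42.8 in replicate 1 and 0 in replicate 2. Igkv14-111 and Igkv10-96 stood at 178 CPM each in GFP+ replicate 3 and at no more than 2.38 CPM in any other library.

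Among heavy chain V segments, Ighv6-3, Ighv1-42 and Ighv1-54 also held most of their summed CPM in GFP+ replicate 3, at 89.5%, 99.8% and 97.1%. Ighv6-3 had 0.190, 0 and 143 CPM in GFP+ ILCPs, against 7.06, 6.42 and 3.11 CPM in GFP- ILCPs. It was the highest V segment in each of the 3 GFP- libraries, where it made up 47.9%, 49.5% and 90.9% of the V counts, while Igkv1-110 led in GFP+ replicate 3 with 29.0%. Its edgeR log2 fold change was 3.12 ± 2.05 (SE, adjusted p = 0.998), and −5.70 ± 1.94 (SE, adjusted p = 1.00) without GFP+ replicate 3. Ighv1-42 and Ighv1-54 reached 85.6 and 27.2 CPM in GFP+ replicate 3, and no other library was above 0.823 CPM for either. Ighv1-77 and Ighv6-5 were highest in GFP- replicate 2, at 2.98 and 3.49 CPM, against 2.00 and 0.118 CPM in GFP+ replicate 3.

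The J segments followed the V segments. Igkj5 had 0.0633, 0 and 32.4 CPM in GFP+ ILCPs and 0 in every GFP- library, a difference of at least 109-fold if the GFP- group is set to the floor of 3 counts. GFP+ replicate 3 alone sets this bound: GFP+ replicate 1 held 0.803 counts and GFP+ replicate 2 held 0, so no bound can be given without it. Ighj1 had 0.380, 0 and 26.6 CPM in GFP+ ILCPs, against 0.350, 0 and 0 CPM in GFP- ILCPs. Igkj2 had 0, 0 and 21.7 CPM in GFP+ ILCPs, against 0.0699, 0.0459 and 0 CPM in GFP- ILCPs. Igkj3, the segment without the motif, had 8.89 counts in GFP+ replicate 3 and 0 in the other 5 libraries.

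The remaining members were rare. Of the 45, 25 had at most 20 summed counts, 22 had counts in 1 library only, and 21 of the 39 V and J segments had 0 counts in all GFP- libraries. The 6 V segments annotated as pseudogenes did not exceed 15.4 counts in any library. GFP+ replicate 2 had counts on 3 members, Ighm, Igkc and Ighd, and on none of the V or J segments. GFP+ replicate 3 was the highest library for 33 of 45 members, against 19.9% of all genes. It held over 80% of the summed CPM for 31 of 45 members, against 1.18% of all genes. The 22 members with counts in 1 library only are highest there by the rule that took them in, so both counts are partly fixed.

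Constant regions and V segments were then compared within each library. All members together took 0.0499%, 0.0472% and 3.04% of the counts in GFP+ libraries, against 0.116%, 0.0679% and 0.135% in GFP- libraries. Of heavy and light chain counts, constant regions made up 98.5% (95% Wilson interval 98.2% to 98.8%), 100% (99.9% to 100%) and 94.0% (93.96% to 94.1%) in GFP+ libraries. In GFP- libraries they made up 98.4% (98.1% to 98.6%), 97.8% (97.5% to 98.04%) and 99.8% (99.7% to 99.8%). GFP+ replicate 3 had the lowest share of the 6 libraries and GFP+ replicate 2 the highest, so the groups overlapped. These intervals cover counting error only.

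Set against the constant region counts of the members, V counts were highest in GFP+ replicate 3. The members hold no lambda constant region, so the constant region sum lacks lambda while the V sum holds it. Lambda segments gave 26.1% of the V counts in GFP+ replicate 3. There were 1.40, 0 and 6.09 V counts for every 100 constant region counts in GFP+ libraries, against 1.61, 2.24 and 0.224 in GFP- libraries. Per kb of exon, which allows for the shorter V segments, the numbers were 6.72, 0 and 15.8 in GFP+ libraries, against 5.55, 11.5 and 0.968 in GFP- libraries. The order differed once Ighm was set aside: for every 100 counts on the other constant regions there were 37.4, 0 and 8.46 V counts in GFP+ libraries, against 3.67, 213 and 1.66 in GFP- libraries. GFP+ replicate 1 and GFP- replicate 2, with 235 and 133 counts on those constant regions, then stood above GFP+ replicate 3. The 0 in GFP+ replicate 2 stands for 0 of 7102 heavy and light chain counts, which allows a V share of up to 0.0422%. Summed over the 35 segments, V levels were 5.57, 0 and 2096 CPM in GFP+ ILCPs, against 14.8, 12.98 and 3.42 CPM in GFP- ILCPs. GFP+ replicate 3 was 142-fold over the next highest library for summed V segments, 22.6-fold for summed constant regions and 7.30-fold for Ighm alone.

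**Figure D2:**
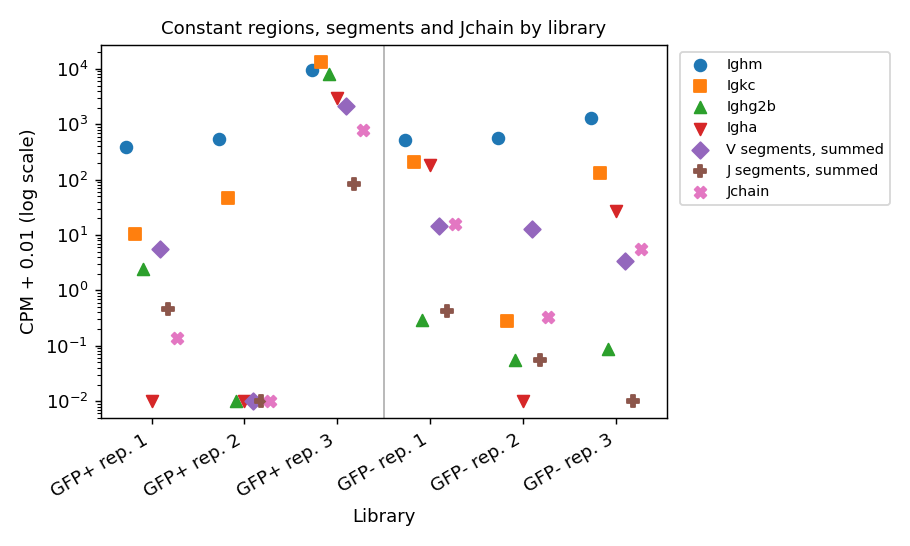
CPM + 0.01 on a log scale for Ighm, Igkc, Ighg2b, Igha, Jchain and the summed V and J segments in each of 3 GFP+ libraries (left of the line) and 3 GFP- libraries (right of it), 1 symbol per gene or sum. Ighm stays between 382 and 1318 CPM in the 5 libraries other than GFP+ replicate 3, where it reaches 9613 CPM, while the other symbols spread over several powers of 10.

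The make-up of the constant regions also differed between libraries. Ighm gave 98.9%, 99.6% and 46.1% of the heavy chain constant counts in GFP+ libraries, against 73.0%, 99.0% and 94.8% in GFP- libraries. In GFP+ replicate 3 Ighg2b gave 39.6% and Igha 14.3% of these counts. In GFP- replicate 1 Igha gave 26.3% and Ighg2b 0.0397%, so the 2 libraries with the lowest Ighm share both held Igha, and Ighg2b was abundant in GFP+ replicate 3 alone. Per kb of exon, Igkc stood at 0.0986, 0.309 and 5.00 times the Ighm level in GFP+ libraries, against 1.46, 0.0017 and 0.361 times in GFP- libraries. Igkc was thus above Ighm per length in GFP+ replicate 3 and GFP- replicate 1. Of the V counts in GFP+ replicate 3, 61.4% were kappa, 26.1% lambda and 12.5% heavy chain, whereas heavy chain segments gave 37.5% in GFP+ replicate 1 and 75.4%, 99.3% and 90.9% of the V counts in the GFP- libraries.

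**Figure D3:**
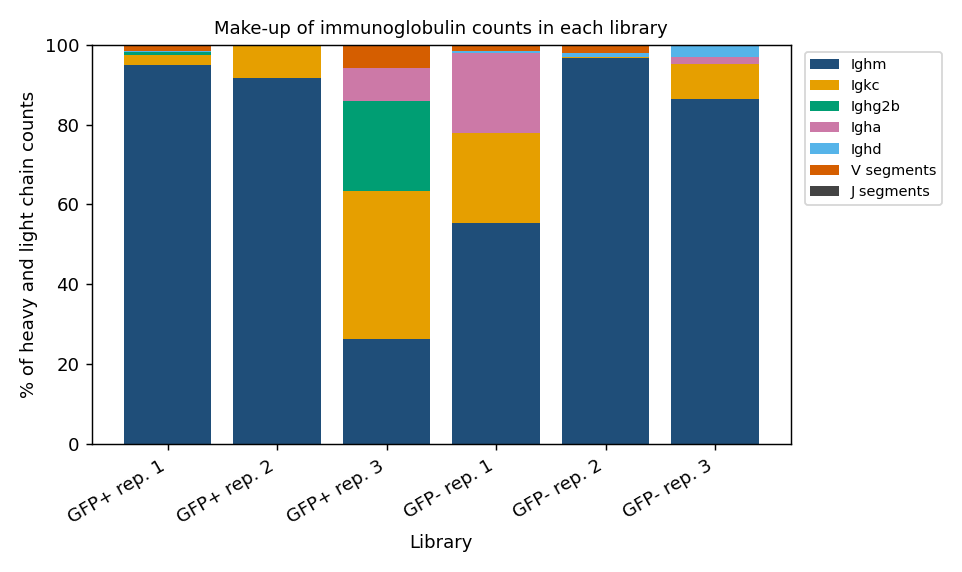
Share of heavy and light chain counts (%) that fell on each constant region gene and on summed V and J segments, 1 stacked bar per library, 3 GFP+ libraries before 3 GFP- libraries. Ighm fills 94.8% and 91.7% of the bars of GFP+ replicates 1 and 2 but 26.3% of that of GFP+ replicate 3, where Igkc takes 37.0%, and 55.3% of that of GFP- replicate 1.

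No immunoglobulin gene passed the test over all genes. edgeR's quasi-likelihood test called 0 of the 6 members that passed its filter on low counts, where it called 0% of all 12199 genes tested. Of the 6, Ighm, Igkc, Igha, Jchain and Ighv6-3 had positive log2 fold changes and Ighd a negative one, with a median of 3.47 against −0.03 over all genes tested. At an unadjusted p under 0.05 there was 1 member, Ighd, lower, beside 1.46% of all genes lower and 1.77% higher. Leaving out GFP+ replicate 3 turned all 5 positive fold changes negative, and no gene was called by edgeR then either. Of the 13044 genes tested in that fit, 508 had an unadjusted p under 0.05. With the replicate number as a block, which compares the fractions within each pool of mice, edgeR called 0 genes. The log2 fold changes of Igha, Jchain and Ighv6-3 were then negative, at −0.56 ± 12.0, −2.34 ± 4.46 and −3.92 ± 3.06 (SE). Those of Ighm and Igkc stayed positive, at 0.70 ± 0.80 and 5.27 ± 3.46 (SE), and Ighd was at −2.93 ± 2.17 (SE).

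**Figure D4:**
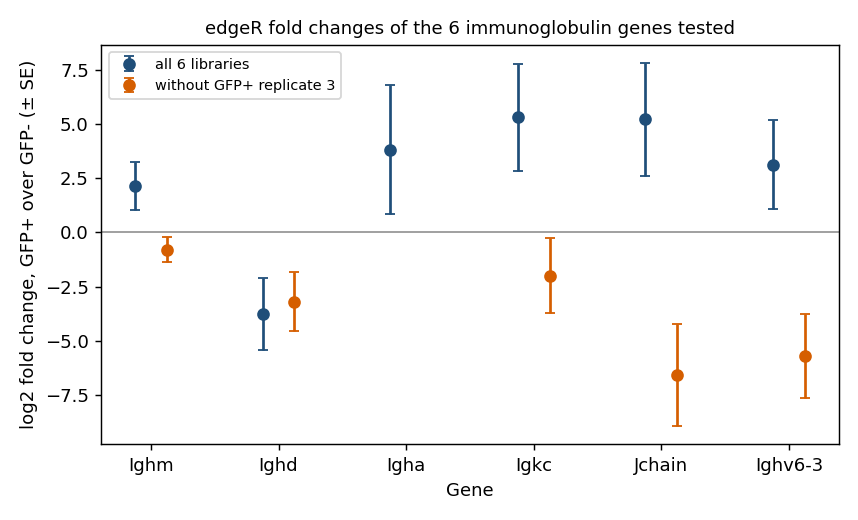
edgeR log2 fold change, GFP+ over GFP-, with its standard error for the 6 immunoglobulin genes tested, from all 6 libraries and without GFP+ replicate 3. Ighm, Igkc, Jchain and Ighv6-3 turn negative without that library while Ighd is at −3.19; Igha has no second point because its remaining GFP+ libraries had 0 counts.

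The authors' deposited table lists 5 members with an adjusted p under 0.05, all higher in GFP+ ILCPs, beside 0.214% of all genes listed as higher and 0.385% as lower. In the authors' deposited table these are Igkj5, Igkv15-103, Ighg2b, Ighv1-54 and Igkv19-93, with adjusted p of 5.93e-13, 1.02e-08, 0.000722, 0.0142 and 0.0161. GFP+ replicate 3 held 97.1% to 99.97% of the summed CPM of each. DESeq2 with default settings called none of the 45, beside 0.0916% of all genes called higher and 0.275% lower. It left 17 members without a p and 29 without an adjusted p. With its outlier filter off it called Ighg2b, Igkj5 and Igkv15-103 (DESeq2 adjusted p of 0.0032, 5.69e-06 and 1.53e-07), beside 0.14% of all genes higher and 0.342% lower. DESeq2 called 7 members higher without GFP+ replicate 1, beside 0.665% of all genes higher and 3.5% lower, and 6 higher without GFP+ replicate 2, beside 0.305% higher and 0.378% lower. The 7 were Ighg2b, Ighv1-54, Igkj5, Igkv15-103, Igkv19-93, Igkj2 and Igkv1-110, all at 0 in GFP+ replicate 2. The 6 were Ighg2b, Ighv1-54, Igkv19-93, Ighv1-42, Igkj2 and Igkv10-96. GFP+ replicate 3 held 97.1% to 99.98% of the summed CPM of each of these members. Without GFP+ replicate 3 DESeq2 called 2 members, both lower in GFP+ ILCPs, beside 0.403% of all genes lower and 0.238% higher. These were Jchain and Ighv6-3, with DESeq2 adjusted p of 0.044 and 0.0129 and log2 fold changes of −6.71 and −5.75. With the replicate number as a block, DESeq2 called Igkc higher (DESeq2 adjusted p = 0.0153), beside 0.171% of all genes higher and 0.763% lower, and edgeR with the block called no member. DESeq2 gave Igkc, Jchain and Ighv6-3 an adjusted p in 5 of 9 fits each, and none in the default fit or in those without a GFP- library. Over these 5 fits the DESeq2 adjusted p of Igkc ranged from 0.0153 to 0.913, that of Jchain from 0.044 to 0.782 and that of Ighv6-3 from 0.0129 to 0.806.

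Genes of B cells and plasma cells were looked at beside the members. In bulk RNA, fewer cells of a type and less RNA per cell cannot be told apart. Pax5, the B lineage regulator, had 1.58, 0.332 and 0 CPM in GFP+ ILCPs, against 0.0699, 0 and 0 CPM in GFP- ILCPs. Pax5 was thus at 0 in the library with the most immunoglobulin RNA. Cd79a, a signalling chain of the B cell receptor, had 9.68, 0 and 24.5 CPM in GFP+ ILCPs, against 0.350, 1.47 and 2.64 CPM in GFP- ILCPs. Cd79b, its partner, had 16.0, 3.40 and 62.2 CPM in GFP+ ILCPs, against 29.3, 30.3 and 41.4 CPM in GFP- ILCPs. With Cd79b, the genes of highest mean in the B cell surface list were Cd24a, Cd37 and Bank1. Cd24a, Cd37 and Bank1 stood at 134, 53.2 and 0.471 CPM in GFP+ replicate 3. Cd24a was highest there, whereas Cd37 reached 109 CPM in GFP- replicate 1 and Bank1 115 CPM in GFP+ replicate 2. GFP+ replicate 3 was the highest library for 5 of the 15 genes of the B cell surface list, whose summed level was 228 to 324 CPM in GFP+ and 202 to 280 CPM in GFP- ILCPs. Of the 13 that entered the edgeR test, 7 had positive and 6 negative log2 fold changes, with 0 called and a median log2 fold change of 0.13. Without GFP+ replicate 3 there were 5 positive and 8 negative values with a median of −0.13. Of the 12 B lineage transcription factors, 1 was highest in GFP+ replicate 3, against 19.9% of all genes. This was Pou2af1, a B cell coactivator of the immunoglobulin genes, which had 1.20, 0 and 69.8 CPM in GFP+ ILCPs, against 10.3, 0 and 0.544 CPM in GFP- ILCPs. Ebf1, Spib and Bcl11a, other regulators of that list, stood at 0.825, 0.825 and 0.589 CPM in GFP+ replicate 3. Lef1, Pou2f2, Foxo1 and Bach2, the 4 genes of highest mean in that list, stood at 252, 232, 163 and 87.9 CPM there. Pou2f2 had 527, 73.0 and 232 CPM in GFP+ ILCPs, against 34.3, 24.8 and 43.9 CPM in GFP- ILCPs. Foxo1 had 199, 278 and 163 CPM in GFP+ ILCPs, against 148, 102 and 137 CPM in GFP- ILCPs. For both, the groups did not overlap and GFP+ was higher, as for 2.59% of all genes, and edgeR called neither. The groups overlapped for Lef1 and Bach2. Spib was lower in GFP+ replicate 2, at 0.746 CPM.

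GFP+ replicate 3 was the highest library for 13 of the 22 plasma cell genes, against 19.9% of all genes, and the summed level of the list was 1374 to 2322 CPM in GFP+ and 1292 to 1932 CPM in GFP- ILCPs. Eaf2, which binds the elongation factor ELL, had 6.45, 12.6 and 80.7 CPM in GFP+ ILCPs, against 8.32, 8.26 and 8.62 CPM in GFP- ILCPs. Derl3, which helps clear misfolded proteins from the endoplasmic reticulum, had 1.08, 0 and 22.4 CPM in GFP+ ILCPs, against 2.03, 4.82 and 0 CPM in GFP- ILCPs. Prdm1, the regulator of plasma cell fate, had 12.7, 25.6 and 51.6 CPM in GFP+ ILCPs, against 12.0, 13.1 and 14.99 CPM in GFP- ILCPs. Sdc1, the plasma cell surface marker CD138, had 23.2, 8.62 and 27.0 CPM in GFP+ ILCPs, against 30.5, 32.0 and 16.2 CPM in GFP- ILCPs, so GFP+ replicate 3 was not its highest library. Hsp90b1, the most abundant gene of the list and a chaperone of secreted proteins, had 445, 735 and 762 CPM in GFP+ ILCPs, against 421, 504 and 1120 CPM in GFP- ILCPs. All 22 entered the edgeR test, where 17 had positive and 5 negative log2 fold changes with 0 called and a median log2 fold change of 0.45, whereas 10 were positive and 12 negative when GFP+ replicate 3 was left out, with a median of −0.07. Pou2af1, Eaf2, Derl3, Prdm1, Sdc1, Pax5, Ebf1, Spib, Bcl11a, Cd79a, Il2ra, Flt3, Rag1, Lig4, Nhej1 and Ciita were named after their values were seen.

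**Figure D5:**
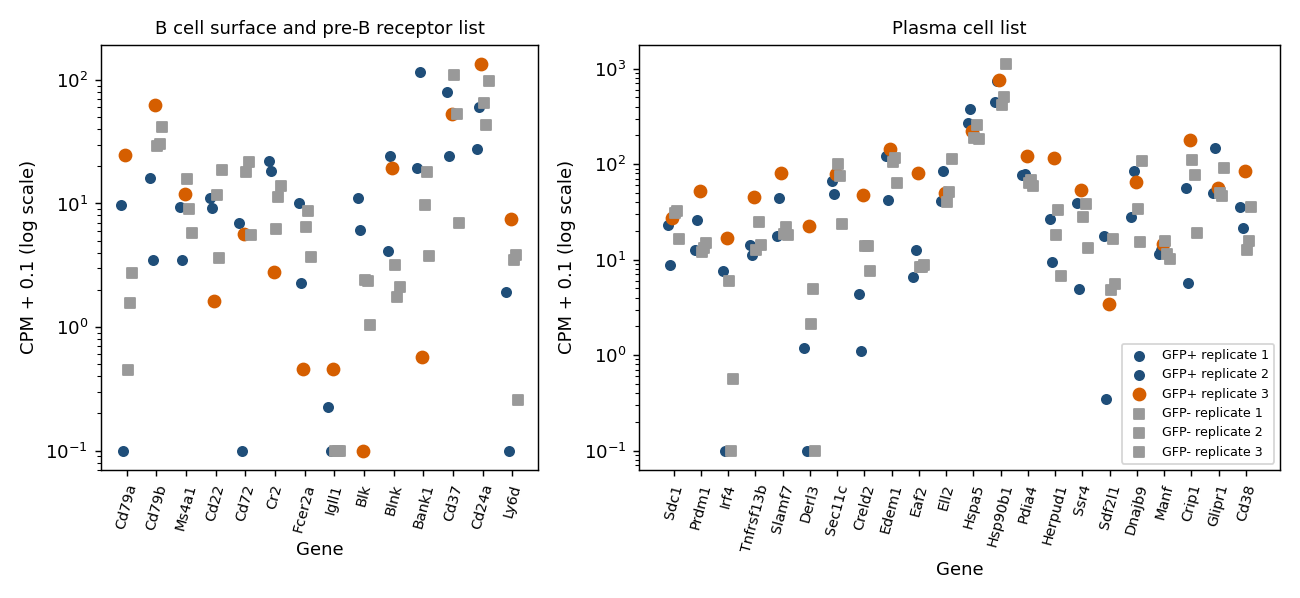
CPM + 0.1 on a log scale for genes of the B cell surface list (left) and the plasma cell list (right); circles are GFP+ libraries, with GFP+ replicate 3 in orange, and grey squares are GFP- libraries. The orange circle is the highest symbol for 5 genes on the left, Cd79a and Cd79b among them, and for 13 of 22 on the right.

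Most markers of granulocytes, monocytes and erythroid cells were highest in the same library. GFP+ replicate 3 was the highest library for 6 of 7 granulocyte and monocyte genes and 7 of 9 erythroid genes, against 19.9% of all genes. It was the highest for 2 of 7 plasmacytoid dendritic cell genes. Csf1r had 81.9 CPM in GFP+ replicate 1 and 81.8 CPM in GFP+ replicate 3. Alas2, of the erythroid list, had 24.4 CPM in GFP+ replicate 1 and 0 in GFP+ replicate 3. The summed level of the granulocyte and monocyte genes was 849, 25.3 and 1640 CPM in GFP+ ILCPs, against 373, 174 and 280 CPM in GFP- ILCPs. Mpo, the neutrophil enzyme myeloperoxidase, had 35.5, 0.332 and 644 CPM in GFP+ ILCPs, against 81.6, 18.5 and 159 CPM in GFP- ILCPs. The erythroid sums were 121, 26.4 and 250 CPM in GFP+ ILCPs, against 66.9, 54.5 and 14.9 CPM in GFP- ILCPs. The part of such cells in the immunoglobulin values was not tested. All 7 granulocyte and monocyte genes and all 6 erythroid genes tested had positive edgeR log2 fold changes with 0 called. Without GFP+ replicate 3, 3 of 7 and 2 of 7 were positive.

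Recombination genes were uneven in the library with the most immunoglobulin RNA. Rag1 and Rag2, the subunits of the V(D)J recombinase, and Dntt, which adds bases at the joints, had 0 counts in that library. Rag1 had 0 CPM in all GFP+ libraries, against 4.54, 3.90 and 1.94 CPM in GFP- ILCPs. Rag2 had 8.35, 135 and 0 CPM in GFP+ ILCPs, against 23.0, 15.4 and 29.3 CPM in GFP- ILCPs. Dntt had 6.83, 31.1 and 0 CPM in GFP+ ILCPs, against 40.9, 15.3 and 50.6 CPM in GFP- ILCPs. Of the genes of DNA end joining, Lig4, Prkdc and Dclre1c were detected there and Nhej1 was not. Nhej1 had 1.71, 0.995 and 0 CPM in GFP+ ILCPs, against 16.8, 0.321 and 2.87 CPM in GFP- ILCPs. Lig4, a DNA ligase of this pathway, had 15.4, 2.49 and 38.9 CPM in GFP+ ILCPs, against 14.1, 27.0 and 33.5 CPM in GFP- ILCPs, and was highest in GFP+ replicate 3. Prkdc, the catalytic subunit of DNA-dependent protein kinase, and Dclre1c, the nuclease Artemis, stood at 135 and 61.8 CPM in GFP+ replicate 3, against 127 to 177 and 91.2 to 141 CPM in GFP- ILCPs. The edgeR test took in 7 genes of this list, 3 with positive and 4 with negative log2 fold changes, 0 called and a median of −0.39, and without GFP+ replicate 3 it gave 4 positive and 4 negative values with a median of −0.10.

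The other lists held no call either. T cell receptor genes had positive log2 fold changes for 3 of 8 (median −0.07), and for 6 of 8 (median 0.40) without GFP+ replicate 3, with Tcrg-C1, a gamma chain constant region, at 768, 4377 and 2295 CPM in GFP+ ILCPs, against 729, 851 and 1524 CPM in GFP- ILCPs. The constant region of the gamma chain thus peaked in GFP+ replicate 2, the library without V segment counts of immunoglobulin. MHC class II genes had positive values for 2 of 9 and plasmacytoid dendritic cell genes for 3 of 7, while B lineage transcription factors had them for 8 of 11 and the sorted ILCP markers for 6 of 12. Without GFP+ replicate 3 these counts were 0 of 9, 4 of 7, 7 of 11 and 5 of 12. Cd74, the invariant chain of MHC class II, had 215, 495 and 1423 CPM in GFP+ ILCPs, against 335, 461 and 332 CPM in GFP- ILCPs. It was the only 1 of the 9 MHC class II genes that was highest in GFP+ replicate 3. H2-Ob, a chain of the peptide-loading modulator H2-O, had 15.6, 11.8 and 0.354 CPM in GFP+ ILCPs, against 46.7, 49.7 and 56.3 CPM in GFP- ILCPs, and Ciita, the transactivator of class II genes, had 16.3, 1.91 and 0.236 CPM in GFP+ ILCPs, against 42.7, 39.5 and 9.32 CPM in GFP- ILCPs.

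The genes whose levels followed Ighm and Igkc most closely over the 6 libraries were taken from the 10369 other genes with a mean of at least 50 counts. By Pearson's r of log2 CPM, those most like Ighm were Pip4k2b, Eif3f, Tbc1d20, Bmp7, Cdc42, Mtss1, Bcl2l1, Psmc3, Tmem167b and Enpp6, with r of 0.986 to 0.998. Those most like Igkc were Psmd10, Cops9, Tcte2, Arhgap25, Parn, Glrx3, Peli1, Rps6ka1, Nsmce4a and Gm8837, with r of 0.943 to 0.971. Neither list holds a gene of the B cell or plasma cell lists. Every gene of both lists was highest in GFP+ replicate 3, and the 6 points share that library and the scaling to its depth, so these values are a description only.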

How the data were processed

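The authors deposited estimated counts per gene for 16383 genes in 6 libraries, not normalized between libraries and not whole numbers. The submitters' processing notes name GRCm38, kallisto, Bowtie2, Trimmomatic and DESeq2 without saying which step each served. Beside the counts, the authors' deposited table holds, per the file headers, a mean signal per gene, log2 fold changes, a Wald statistic (score), and p-values. Per the labels' protocols, RNA was amplified by single primer isothermal amplification; its effect on these values was not tested. Strand is not given in the sources used here.

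Counts were rounded and tested with edgeR 4.0.16 (quasi-likelihood, robust, TMM, filterByExpr, group as the only term) in R 4.3.3, with Benjamini-Hochberg adjustment over all genes at 0.05. DESeq2 1.42.0 was run beside it. CPM use TMM scaling of library totals. Floors of 3 counts and Wilson intervals cover counting error only, and no molecular identifiers are named in the labels. Fits were also run on simulated counts in which a changed gene shifted equally in all 3 libraries of a group. Such counts do not cover a level held by 1 library. GENCODE vM21 gave positions, exon lengths and sequences. The labels tie each number to one pool of mice, which pairs a GFP+ with a GFP- library. Correlations of their deviations were 0.161, −0.121 and −0.131.

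The members, the 10 lists of 126 other genes (109 in the table, some not reported here by name) and the tests were chosen with earlier results of these data known. Named were all constant region genes, Jchain, the 5 V segments of highest mean in each locus, the 2 J segments of highest mean, any called member, the 10 genes most like Ighm and Igkc, and the 4 genes of highest mean per list, of which the text gives those that bear on the immunoglobulin values. Igkj3, Ighv1-19-1, Ighv1-35 and the list genes stated as such were named after their values were seen. Figures were drawn with matplotlib 3.10.9.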

Additional observations from a re-analysis of the deposited data

How the results depend on the processing

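edgeR called 0 genes and 0 immunoglobulin genes under its default choices, with size factors of DESeq2, library totals, no filter, a mean of at least 50 counts, the replicate block (0 genes) and each library left out. With all 6 libraries and default choices, 394 of 12199 genes tested had an unadjusted p under 0.05. DESeq2 called 60 genes, 153 with the replicate block, 79 with its outlier filter off and 27 to 682 with 1 library left out (682, 112 and 105 genes for the GFP+ replicates in order; 47, 27 and 30 for the GFP- replicates). It called 0 immunoglobulin genes, 1 with the replicate block, 3 with the outlier filter off and 7, 6 and 2 when GFP+ replicates 1, 2 and 3 were left out in turn, with 1 for each GFP- replicate; the DESeq2 settings other than the default were chosen after seeing the data. In edgeR, Igha, Ighv6-3 and Jchain turned negative with the replicate block, at log2 fold changes of −0.56 ± 12.0, −3.92 ± 3.06 and −2.34 ± 4.46 (SE). Ighm and Igkc stayed positive there, at 0.70 ± 0.80 and 5.27 ± 3.46 (SE). Without GFP+ replicate 3, Ighm, Igkc, Ighv6-3, Jchain and Igha were at −0.80, −2.0, −5.70, −6.58 and −13.08, the last a fitted value set by the prior count because the GFP+ libraries left were at 0. The highest values with 1 library left out were 2.74, 6.17, 3.77, 6.57 and 6.29 for the same genes. The cause was not tested. Of 72 alternative fold changes, 64 kept their direction, 8 reversed it and none was called. The default DESeq2 fit, counted among them, gave Igha, Ighm, Ighv6-3, Igkc and Jchain no adjusted p, hence no side of the threshold. The DESeq2 settings chosen after seeing the data are not among the 72. Per kb of exon, constant regions made up 90.4% and 82.6% of immunoglobulin counts in GFP+ replicates 1 and 3, and 93.8% and 89.4% in GFP- replicates 1 and 2. Without the highest constant gene and V segment their share was 81.9% in GFP+ replicate 1, 93.0% in GFP+ replicate 3 and 48.0% in GFP- replicate 2. Without the highest member, immunoglobulin took 0.0026%, 0.00394% and 1.94% of counts in GFP+ replicates 1, 2 and 3, and 0.0529%, 0.00223% and 0.019% of counts in GFP- replicates 1, 2 and 3. Leaving out Jchain or annotated pseudogenes moved no share beyond the spread between replicates, which GFP+ replicate 3 widens. Ighg2b and all segments but Ighv6-3 did not pass edgeR's filter on low counts, and V segments that share sequence could not be told apart further from these counts.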
